A study of Mus musculus with 8 samples.

Results

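The miRNAs described here are 35 members of the imprinted Dlk1-Dio3 cluster, taken by name from the 567 mouse miRNAs of the array. Their values did not enter the rule, though the members were chosen with earlier results of these data known. They come from livers of male C57BL/6J mice that were 8 weeks old when dosing began. The mice received intraperitoneal injections, more often in the first 4 weeks than after. The injections held carbon tetrachloride (CCL4) in olive oil, which injures hepatocytes and leads to fibrosis, or olive oil alone. CCL4 livers were taken at 4 weeks (1 array), 6 weeks (2 arrays) and 8 weeks (2 arrays), and olive oil livers at 4, 6 and 8 weeks (1 array each). Each array was hybridised with Cy3-labelled total RNA in a single colour. Whether an array held RNA from 1 animal or from several is not given in the sources used here. The number n therefore refers to arrays, and p-values measure only the spread between them.

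The cluster lies in an imprinted domain in which the protein-coding genes Dlk1, Rtl1 and Dio3 are expressed from the paternal chromosome and the noncoding RNAs and miRNAs from the maternal one. The miRNAs are thought to be cut from long noncoding transcripts that run through the domain, Meg3, Rian and Mirg among them. They are abundant in the embryo, the placenta and the brain and low in most adult tissues. A member that moves with its neighbours and one that moves alone are therefore different observations, and both were looked for in the injured liver.

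In the annotation of the array (mm9), all 35 members lie on chromosome 12, and their probe targets span 158 kb. They fall into 2 stretches with a gap of 90.7 kb between them. The first holds 7 members over 32.5 kb, from mmu-miR-337-3p to mmu-miR-370, and includes mmu-miR-127, mmu-miR-136, mmu-miR-431, mmu-miR-433 and mmu-miR-434-3p, which are read from the strand opposite to Rtl1. The second holds 28 members over 34.7 kb, from mmu-miR-379 to mmu-miR-410. The mmu-miR-379 probes point to chr12:110947280-110947295, and those of its nearest member, mmu-miR-411, to chr12:110948403-110948420. RefSeq (GRCm38.p6) held the mature sequence of 31 of the 35 members, with the arm settled by the position of the probe. No sequence was held there for mmu-miR-376c, mmu-miR-487b, mmu-miR-485 and mmu-miR-496.

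The sequences shown are those of the 6 members called detected on at least 1 array, of mmu-miR-300 and mmu-miR-376a, which passed a test at 6 or 8 weeks, and of mmu-miR-411 and mmu-miR-381, which resemble mmu-miR-379 and mmu-miR-300, since a hybridisation array reads them through short probes. They are written 5′ to 3′, and the capitals mark the seed, bases 2 to 8, through which a miRNA pairs with its targets.
mmu-miR-379: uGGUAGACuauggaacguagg
mmu-miR-411: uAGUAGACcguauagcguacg
mmu-miR-376a: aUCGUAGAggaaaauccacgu
mmu-miR-376b: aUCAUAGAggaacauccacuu
mmu-miR-377: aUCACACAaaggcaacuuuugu
mmu-miR-300: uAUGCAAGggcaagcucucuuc
mmu-miR-381: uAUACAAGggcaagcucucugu
mmu-miR-127: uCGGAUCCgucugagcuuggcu
mmu-miR-136: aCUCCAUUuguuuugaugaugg
mmu-miR-154: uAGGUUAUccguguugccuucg

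The 31 members with a sequence had 31 different seeds, so no pair of them shared one. Counted from 1 at the 5′ end, mmu-miR-376b departs from mmu-miR-376a by G4A, A13C and G20U (3 of 21 bases), the first of these within the seed. mmu-miR-381 departs from mmu-miR-300 by G4A, U21G and C22U (3 of 22 bases). mmu-miR-411 departs from mmu-miR-379 at 7 of 21 bases, and within the seed by G2A.

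One hairpin of the cluster is shown, Mir154, of which each arm was on the array and was called detected on at least 1 array. Both arms read brighter with CCL4 at 6 and 8 weeks than with olive oil at the same time. That order was not particular to Mir154. The arms of mmu-miR-411, mmu-miR-376b, mmu-miR-376c, mmu-miR-136 and mmu-miR-300 and their star strands had it too. Mir154 lies at chr12:109738433-109738498 on the plus strand of GRCm38.p6, with mmu-miR-154 and, after the loop, mmu-miR-154* in capitals.
Mir154: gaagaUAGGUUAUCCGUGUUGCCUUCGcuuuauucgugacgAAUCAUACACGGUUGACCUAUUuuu

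The deposited signals are brightness values after background subtraction, summed over the spots of a miRNA, and can fall below 0. Over all mouse miRNAs the arrays called 117 to 158 detected, and the 75th percentile of the signal ran from 4.71 to 11.0. Olive oil arrays held the range from 4.71 to 6.48, and CCL4 arrays that from 6.53 to 11.0. In unscaled log2 signal, the 113 miRNAs that every array detected were higher with CCL4 by a median of 0.33 at 4 weeks, of 0.13 at 6 weeks and of 0.46 at 8 weeks. The CCL4 arrays thus tended to be brighter, but not each of them. Over these 113 miRNAs the 75th percentile was 281 on replicate 1 of 6 weeks with CCL4. It was 323 to 386 on the olive oil arrays and 435 to 682 on the other CCL4 arrays. Since brightness differed between arrays, both unscaled signals and signals divided by the 75th percentile of the array are given below. All 8 arrays were on 1 slide. The hepatocyte miRNAs mmu-miR-122, mmu-miR-192 and mmu-miR-194 were detected on every array.

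Most of the cluster was below detection in these livers. Of the 35 members, 29 were called detected on no array, and 6 were detected on at least 1 (mmu-miR-379, mmu-miR-376b, mmu-miR-377, mmu-miR-127, mmu-miR-136 and mmu-miR-154), against 31.4% of all 567 mouse miRNAs. The software calls a miRNA detected where the signal of any of its probes exceeds 3 times its error, a rule that gave all 4536 calls. Neither olive oil nor the CCL4 array of 4 weeks gave a call for any of the 6. The pair of CCL4 arrays at 6 weeks detected 0 and 5 members, and the pair at 8 weeks 6 and 1. By this rule the replicates at both weeks therefore differed in the number detected by about as much as the treatments did. With 1 limit of 8.16 for every array, the CCL4 pair had 0 and 5 members past it at 6 weeks. At 8 weeks the pair had 6 and 4, and so differed less than by the calls. No olive oil liver had a member past this limit, nor did CCL4 at 4 weeks. The error of the members was highest on the second 8-week CCL4 array, with a median of 4.30, against 2.63 to 3.45 on the others.

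**Figure D1:**
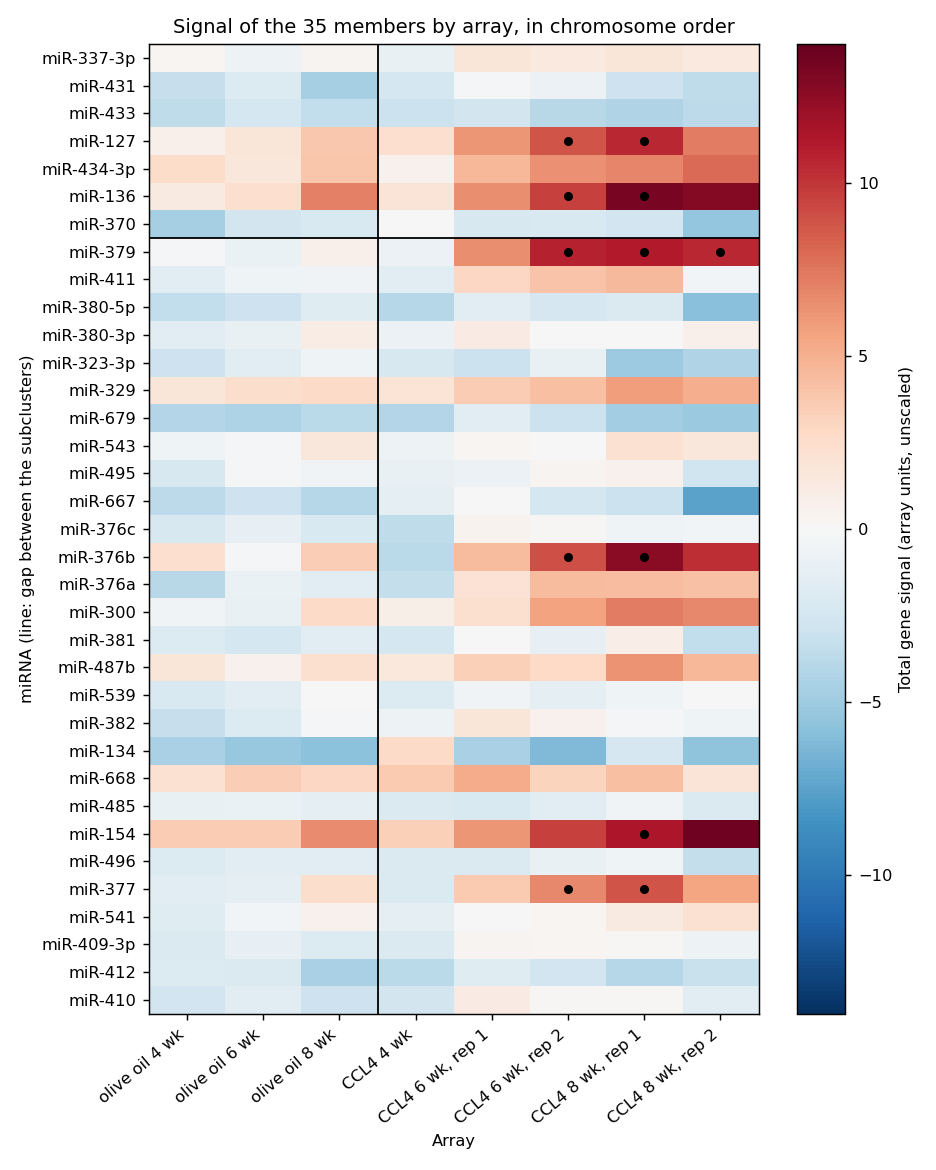
Unscaled signal of the 35 members (rows, in chromosome order) on the 8 arrays (columns), with a black dot where the software called the member detected. Dots lie only on 3 CCL4 arrays of 6 and 8 weeks, and the brighter rows are spread over both stretches of the cluster.

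Signal from the members was faint even where it was called. Of the 699 spots of the members, the number well above background was 4, 4, 16, 18 and 3 with CCL4 (4 weeks, 6 weeks replicates 1 and 2, 8 weeks replicates 1 and 2). With olive oil it was 2, 0 and 11 at 4, 6 and 8 weeks. The highest share was 2.58%, against 15.6% to 20.7% of the spots of all mouse miRNAs. With CCL4, 9 members had a signal above 0 at 4 weeks, 20 and 21 at 6 weeks, and 21 and 17 at 8 weeks. With olive oil the same count was 9, 7 and 16 at 4, 6 and 8 weeks. The later CCL4 arrays and the olive oil array of 8 weeks thus held more members above 0 than the other 3 arrays. Of the 360 miRNAs outside the list that no array detected, 24.4% were above 0 with CCL4 at 4 weeks. The share was 30% and 22.2% at 6 weeks and 28.6% and 18.3% at 8 weeks. With olive oil it was 16.1%, 22.5% and 24.4% at 4, 6 and 8 weeks.

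mmu-miR-379, the first miRNA of the second stretch, which has been studied in liver for its part in lipid handling, was called detected on 3 arrays, more than any other member. With olive oil its unscaled signal read -0.196 at 4 weeks, -0.900 at 6 weeks and 0.666 at 8 weeks. With CCL4 it read -0.868 at 4 weeks, 6.56 and 10.7 at 6 weeks, and 11.1 and 10.5 at 8 weeks. The CCL4 array of 4 weeks lay among the olive oil arrays, and the 4 later CCL4 arrays lay above all of them. The error given by the software for this miRNA was 2.64 to 4.42 on an array. Its 3 calls of detection were on replicate 2 of 6 weeks and on both arrays of 8 weeks.

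After division by the 75th percentile, mmu-miR-379 read 1.01 and 1.42 at 6 weeks and 1.01 and 1.21 at 8 weeks on the CCL4 arrays. Olive oil then read -0.0384, -0.191 and 0.103 at 4, 6 and 8 weeks, and CCL4 at 4 weeks -0.0914. The order of the arrays was the same on both scales: 4 late CCL4 arrays above, 4 other arrays near 0.

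mmu-miR-379 was the only member that entered the test on scaled log2 signals, in which scaled signals under 0.01 were set to 0.01 and a miRNA had to be detected on at least 3 arrays. It met that condition through CCL4 arrays alone, so a difference was built into its selection, and the call says nothing of the cluster. Over all weeks it was higher with CCL4 by 3.76 on the log2 scale (SE 0.85, limma adjusted p = 0.0118), where 13.5% of the 133 miRNAs tested were called higher and 35.3% lower. The size rests on the 0.01 at which 3 of the 8 arrays were set, and it is not a measured fold. With 0.01 set before the division, the order the study's methods give, the difference was 4.32 (limma adjusted p = 0.0273), with 13.5% called higher and 35.3% lower. With week left out, exact permutation of the treatment labels (56 ways to place 5 against 3) gave a two-sided p of 0.143 (adjusted 0.211), where the smallest possible is 0.0179. Part of this p comes from splits that exchange the CCL4 array of 4 weeks, which was at the same floor as 2 of the olive oil arrays. The rest comes from splits of opposite sign that place late CCL4 arrays in the group of 3.

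At a single week the difference of mmu-miR-379 was 0.00 at 4 weeks, 6.90 at 6 weeks (SE 0.28, limma adjusted p = 2.13e-67) and 3.43 at 8 weeks (SE 0.28, limma adjusted p = 6.48e-25). At 6 weeks 6.02% of the tested miRNAs were called higher and 3.01% lower, and at 8 weeks 6.02% and 0.752%. At 4 weeks, where mmu-miR-379 was at the floor on both arrays, 12% were called higher and 33.1% lower. The fit had 2 residual degrees of freedom and gave every miRNA the same SE, so these p-values set values at the floor against a spread shared with brighter miRNAs. The effect of CCL4 differed between weeks for mmu-miR-379 (limma interaction test, adjusted p = 4.81e-54), as for 6.02% of those tested. With the floor raised to the lowest signal called detected on each array, the difference over all weeks turned to -1.89 (limma adjusted p = 0.0556). That lowest signal was 0.139 on the CCL4 array of 4 weeks and 5.59 to 8.16 on the others.

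With no filter on detection, the same scale called 0 members over all weeks by limma (0.882% of the 567 miRNAs higher, 0% lower), with 4 members higher at an unadjusted p under 0.05, as were 4.76% of all miRNAs, while 11.5% were lower. At 4 weeks it called 1 higher, mmu-miR-134 (2.82% higher, 0.882% lower), which also passed the interaction test (5.11% of all). This sets 1 array against 1. Its signal was above 0 on that CCL4 array alone, so the other 7 arrays were at the floor and the SE was 0.00119, and the call follows from the floor. At 6 weeks it called 0 members (0.176% higher, 1.23% lower), and at 8 weeks 0 (0% higher, 1.23% lower).

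Against the lowest detected signal of the olive oil array, unscaled mmu-miR-379 was 1.34-fold higher with CCL4 at 6 weeks and 1.39-fold higher at 8 weeks. The ratio takes the mean log2 signal of the CCL4 pair, and the lowest detected signal was 6.26 at 6 weeks and 7.80 at 8 weeks. It is not a strict lower bound, since an undetected miRNA can read above that signal. On the olive oil array of 6 weeks mmu-miR-137 read 9.59 without a detected call. At 6 weeks 1 of the 2 CCL4 arrays had called mmu-miR-379 detected. With both arrays divided by their 75th percentile the ratio came to 0.899 and 0.919, and no fold is given on that scale.

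mmu-miR-376b, in the second stretch, belongs to the miR-376 group, known for A-to-I editing of its precursors. With olive oil it read 2.32, -0.316 and 3.46 at 4, 6 and 8 weeks, and with CCL4 -3.75 at 4 weeks, 4.41 and 8.98 at 6 weeks, and 12.6 and 10.3 at 8 weeks. The 4 later CCL4 arrays lay above the olive oil arrays, and the CCL4 array of 4 weeks below them. It was detected on replicate 2 of 6 weeks and replicate 1 of 8 weeks.

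mmu-miR-377 lies toward the far end of the same stretch. It read -1.50, -1.36 and 2.45 with olive oil and -2.05 with CCL4 at 4 weeks, then 3.67 and 6.76 at 6 weeks and 8.77 and 5.53 at 8 weeks. The groups of 6 and 8 weeks did not overlap the olive oil arrays, and detection was called on the same 2 arrays as for mmu-miR-376b. mmu-miR-154 read 3.54, 3.55 and 6.60 with olive oil, 3.38 with CCL4 at 4 weeks, 6.18 and 9.54 at 6 weeks and 11.3 and 13.7 at 8 weeks. Its olive oil array of 8 weeks was brighter than the first CCL4 array of 6 weeks, so those groups overlapped, and it was detected on 1 array, replicate 1 of 8 weeks.

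In the first stretch, mmu-miR-127, one of the miRNAs read opposite to Rtl1, was 0.687, 1.73 and 3.76 with olive oil at 4, 6 and 8 weeks. With CCL4 it was 2.39 at 4 weeks, 6.13 and 8.85 at 6 weeks and 10.5 and 7.17 at 8 weeks. mmu-miR-136, from the same opposite strand, was 1.30, 2.33 and 7.08 with olive oil, 1.78 with CCL4 at 4 weeks, 6.49 and 9.54 at 6 weeks and 13.3 and 12.8 at 8 weeks. For mmu-miR-127 the late CCL4 arrays lay above every olive oil array. For mmu-miR-136 they lay above the olive oil array of their own week, and the olive oil array of 8 weeks read above the first CCL4 array of 6 weeks. Both were detected on replicate 2 of 6 weeks and replicate 1 of 8 weeks.

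**Figure D2:**
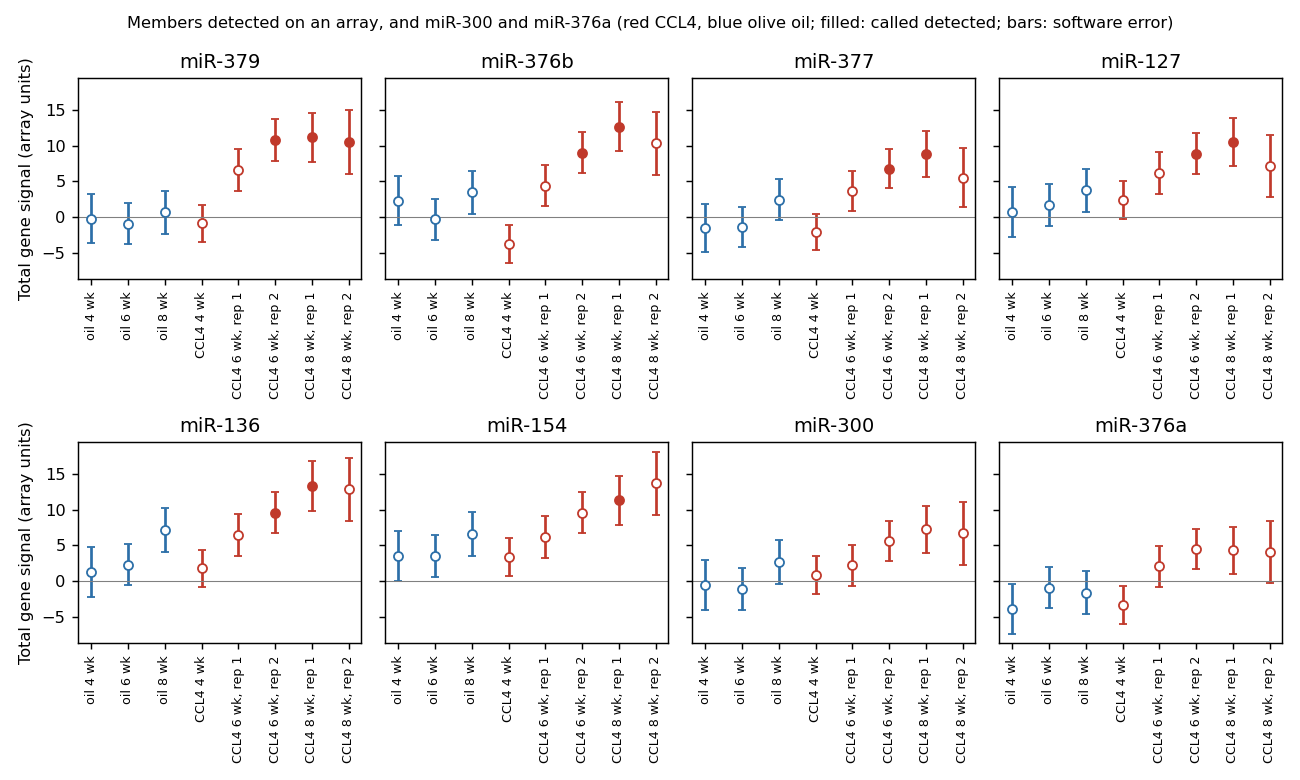
Unscaled signal (array units) of the 6 members detected on at least 1 array and of mmu-miR-300 and mmu-miR-376a, which were called in a test at 6 or 8 weeks, on each array, with the error of the software as bars. Blue points are olive oil, red points CCL4, and filled points were called detected. In every panel the CCL4 array of 4 weeks sits below the highest olive oil point, and the later CCL4 arrays sit higher than it.

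The 29 members never called detected had highest signals from -2.46 (mmu-miR-433) to 7.91 (mmu-miR-434-3p) and were at most 2.55 times their error on any array. For 21 of them the highest signal was smaller than its own error. A single reading of these miRNAs cannot be told from 0 at this brightness, and only their order over arrays can be described.

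That order was counted for every miRNA of the array. The unscaled signal was above all 3 olive oil arrays on all 4 CCL4 arrays of 6 and 8 weeks for 12 of the 35 members (34.3%), where 8.82% of the 567 miRNAs met the same condition. Of the 360 miRNAs outside the list that were detected on no array, 13 did (3.61%), and 3 of these 13 were other miRNAs of the cluster. The 12 members were mmu-miR-379, mmu-miR-411, mmu-miR-329, mmu-miR-376a, mmu-miR-376b, mmu-miR-376c, mmu-miR-487b, mmu-miR-377 and mmu-miR-409-3p in the second stretch, and mmu-miR-127, mmu-miR-434-3p and mmu-miR-337-3p in the first. They make up 9 of 28 and 3 of 7 members of the stretches. 8 of the 12 were never detected. For mmu-miR-376c and mmu-miR-409-3p no signal went above 0.452 and 0.422, so their order was one among readings near or below 0.

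Of these members without a detected call, mmu-miR-376a read -3.85, -0.898 and -1.63 with olive oil and -3.33 with CCL4 at 4 weeks, against 2.06, 4.47, 4.33 and 4.09 on the later CCL4 arrays. mmu-miR-434-3p, next to mmu-miR-136, read 2.59, 1.54 and 3.93 with olive oil, 0.640 with CCL4 at 4 weeks, and 4.62, 6.39, 6.81 and 7.91 on the later CCL4 arrays. mmu-miR-411, the nearest member to mmu-miR-379, read 2.90, 4.04 and 4.49 on 3 of the late CCL4 arrays and -0.393 on replicate 2 of 8 weeks, against -1.51, -0.594 and -0.474 with olive oil. Its lowest late CCL4 signal was above its highest olive oil signal by 0.0807, far less than its error.

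The count depended on the scale and on 1 array. After division by the 75th percentile 16 members met the condition (45.7%), the 12 above among them, but so did 14.8% of all miRNAs and 13.9% of the never detected ones outside the list, where a negative signal of a brighter array moves toward 0. Compared only within a week, 18 members (51.4%) were above olive oil on all 4 later CCL4 arrays, with 19.8% of all miRNAs, and after scaling 21 members, with 24%. Without the olive oil array of 8 weeks, the count was 20 members, with 17.6% of all miRNAs. Without any other single array it was 12 to 15, with 9.17% to 17.5% of all miRNAs. The olive oil array of 8 weeks was the brightest of the 3 olive oil arrays for 9 of the 12 members and for 55.0% of all 567 miRNAs.

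The size of the differences ran the same way. The unscaled CCL4 signal minus that of olive oil, averaged over 6 and 8 weeks, was above 0 for 28 of the 35 members, with a median of 1.34 and a range from -2.29 to 9.85. For the 360 never detected miRNAs outside the list it was above 0 for 161, with a median of -0.12 and a range from -3.15 to 4.11. The 29 never detected members had a median of 0.79, with 22 above 0.

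All 12 members had their CCL4 array of 4 weeks below each of the 4 later CCL4 arrays and not above the highest olive oil array. They had been picked for high later CCL4 arrays, so this order was partly built in. Its share among the other miRNAs that met the same condition is not given. Over all 35 members 21 had the CCL4 array of 4 weeks below all 4 later ones, and over the 567 miRNAs 15.5% did. At 4 weeks itself, 19 of the 35 members (54.3%) read higher with CCL4 than with olive oil, where 67% of the 567 miRNAs did.

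A test of all members needs a scale that holds signals below 0. A generalized log was used, log2 of the mean of the signal and the square root of the squared signal plus a squared additive error of 2.44, on all 567 miRNAs with no filter on detection. This scale was chosen after the data had been seen. Each week has 1 olive oil array, so in the comparisons of a week the spread comes from the CCL4 pairs alone (2 residual degrees of freedom), and the olive oil array is assumed to vary like them. At 6 weeks, on unscaled signals, 4 of the 35 members were called higher with CCL4 and 0 lower, where 1.06% of the miRNAs were called higher. mmu-miR-379 was higher by 3.34 (SE 0.66, limma adjusted p = 2.03e-04), mmu-miR-377 by 2.89 (limma adjusted p = 0.00257), mmu-miR-376b by 2.61 (limma adjusted p = 0.0114) and mmu-miR-300 by 2.32 (limma adjusted p = 0.0437). All 4 belong to the second stretch. mmu-miR-300 itself was never called detected and read -0.534, -1.05 and 2.67 with olive oil, 0.857 with CCL4 at 4 weeks, and 2.21, 5.59, 7.21 and 6.68 later. On scaled signals 2 members were called higher at 6 weeks, mmu-miR-379 (3.58) and mmu-miR-377 (3.21), both at a limma adjusted p of 0.0246, with 0.705% of miRNAs called higher.

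At 8 weeks 2 members were called higher on unscaled signals, mmu-miR-376a by 2.80 and mmu-miR-379 by 2.78 (SE 0.66, limma adjusted p = 0.00809 for both), where 0.529% were called higher. On scaled signals 0 members passed at 8 weeks and 0% of all miRNAs were called higher, with 2 members and 12 of all miRNAs at an unadjusted p under 0.05. At 4 weeks, where 1 array stood against 1, 1 member read higher and 1 lower past the threshold on unscaled signals. mmu-miR-134, a miRNA known from dendritic spines, was higher by 3.37 (limma adjusted p = 4.45e-04, 6.17% called higher), and mmu-miR-376b lower, its difference being -2.97 (limma adjusted p = 0.00244, 0.705% called lower). On scaled signals these were the members called at 4 weeks too, with 3.17% called higher and 0.705% lower. mmu-miR-134 was at 2.71 on the CCL4 array of 4 weeks and between -6.20 and -2.40 on all others, and was never called detected.

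The effect of CCL4 differed between weeks for 2 members on unscaled signals, mmu-miR-379 (limma adjusted p = 0.0206) and mmu-miR-376b (limma adjusted p = 6.4e-06), with 3.35% of all miRNAs past this test. On scaled signals it differed for mmu-miR-376b alone (limma adjusted p = 0.0272), with 1.06%.

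The fit per week gave every miRNA 1 spread, although the replicate spread on this scale was 0.59 for never detected miRNAs and 0.32 for those detected on all arrays. With the spread allowed to follow brightness, on unscaled signals, 3 members were called higher at 6 weeks (1.06% of all miRNAs) and 1 at 8 weeks (0.882%), mmu-miR-379 at both. At 4 weeks this fit called 1 member higher (7.76%) and 1 lower (0.529%), and 1 member, mmu-miR-376b, passed the interaction test (1.94%). Without replicate 2 of 6 weeks 0 members and 0% of all miRNAs passed at 6 weeks, with mmu-miR-379 at 2.99 (limma adjusted p = 0.104).

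Over all weeks together 0 members passed on this scale, unscaled or scaled, by limma (1.76% and 0.176% of all miRNAs called higher), while 9 and 13 members were higher at an unadjusted p under 0.05, as were 11.6% and 15.9% of all miRNAs. With the spread following brightness, 4 members were called higher over all weeks on unscaled signals, with 6.88% of all miRNAs. A further comparison, which was not planned, left out both 4-week arrays and so joined 6 and 8 weeks. The members it called did not exceed the olive oil arrays on the CCL4 array of 4 weeks. Leaving that array out therefore favours a difference. In this comparison 4 members rose on unscaled signals, with 1.59% of all miRNAs called higher. They were mmu-miR-379 (3.06, SE 0.36, limma adjusted p = 0.00103), mmu-miR-376a (2.43, limma adjusted p = 0.00639), mmu-miR-376b (2.10, limma adjusted p = 0.0197) and mmu-miR-377 (2.08, limma adjusted p = 0.032). On scaled signals mmu-miR-379 (2.93) and mmu-miR-376a (2.38) rose, both at a limma adjusted p of 0.0215, and they were the only miRNAs of the 567 called, 0.353%. The members' median over 6 and 8 weeks was 0.62 unscaled and 0.72 scaled, beside 0.12 and 0.21 over all miRNAs.

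Each miRNA was read by up to 4 probes that end at the same base and differ in length. For several members 1 probe of the pair carried most of the signal. The 16-base target of mmu-miR-379 read 1.48, 0.690 and 2.54 with olive oil at 4, 6 and 8 weeks and 1.51, 6.32, 9.88, 11.5 and 10.3 with CCL4. The 15-base target read -1.67, -1.59 and -1.87 with olive oil and -2.38 with CCL4 at 4 weeks. On the later CCL4 arrays it read 0.238, 0.872, -0.409 and 0.224, above olive oil but near 0. For mmu-miR-154 the 20-base target read 1.16, 2.38 and 4.21 with olive oil and 4.25, 5.53, 7.64 and 8.25 on the later CCL4 arrays. Its 19-base target read 2.38, 1.17 and 2.39 with olive oil and 1.93, 4.01, 3.64 and 5.42 on the later CCL4 arrays. Both targets were thus above olive oil on 3 of these 4 arrays, and the 19-base target was not on the first array of 6 weeks. Of the 26 members with a pair of unequal probes, the longer one showed the larger difference between CCL4 and olive oil at 6 and 8 weeks in 19 (73.1%). Of 109 never detected miRNAs outside the cluster it did in 65.1%.

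Among the members above every olive oil array, the share of G and C was 36.4% to 59.1% with a median of 44.2% in the 10 with a sequence. In the other 21 members with a sequence it was 36.4% to 68.2% with a median of 50%. This difference was not tested.

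Beside the members, the array held 31 other miRNAs of the cluster by position, mostly the opposite arms of the same hairpins, and 1 of them was detected on any array. One more cluster miRNA is not analysed here. mmu-miR-154*, the opposite arm of mmu-miR-154 shown above, was detected on replicate 2 of 6 weeks. It read 1.67, -0.322 and 6.42 with olive oil at 4, 6 and 8 weeks, 0.232 with CCL4 at 4 weeks, 8.11 and 13.2 at 6 weeks, and 13.8 and 14.7 at 8 weeks. It was higher at 6 weeks on the generalized log scale by 3.29 on unscaled signals (limma adjusted p = 2.03e-04) and by 3.39 on scaled ones (limma adjusted p = 0.0246). On unscaled signals it separated on all later CCL4 arrays from all olive oil arrays, as did mmu-miR-299*, mmu-miR-411* and mmu-miR-376c*. These were 4 of the 31, where 8.82% of the 567 miRNAs met the same condition. After scaling mmu-miR-299* no longer met it, and mmu-miR-154*, mmu-miR-411* and mmu-miR-376c* still did. For mmu-miR-411* the lowest later CCL4 signal was -0.0877 and the highest olive oil signal -0.245, unscaled. For mmu-miR-376c* they were -0.923 and -1.36, so both orders rested on readings below 0. mmu-miR-299* read 2.62, 1.98 and 5.09 with olive oil, 1.53 with CCL4 at 4 weeks and 6.41, 7.84, 9.19 and 6.43 later, without a detected call.

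Markers of cell types that the tissue could hold were set beside the members. The summed signal of 6 mesenchymal miRNAs (mmu-miR-143, mmu-miR-145, mmu-miR-199b and its star strand, mmu-miR-214 and mmu-miR-199a-5p) was 103 to 190 with olive oil, 199 to 552 with CCL4 at 6 and 8 weeks and 469 with CCL4 at 4 weeks, and 5 of the 6 were detected. The summed signal of the 35 members was -36.0 on that 4-week array, against 36.6 to 80.1 with CCL4 at the later weeks and -46.4 to -3.00 with olive oil. The mesenchymal list was thus high at 4 weeks, where the members were not. The 7 neuronal miRNAs on the array summed to -12.8 to 14.5 on the later CCL4 arrays, with 0 to 2 detected, and to -11.7 to -0.432 with olive oil. Of these, mmu-miR-124, mmu-miR-9, mmu-miR-9*, mmu-miR-138 and mmu-miR-153 were detected on no array. mmu-miR-128 read 6.95, 6.03, 12.8 and 5.29 on the later CCL4 arrays, above the olive oil arrays, which read at most 4.86, and was detected on replicate 1 of 8 weeks. mmu-miR-137 was detected on that array, at 18.4, and on the olive oil array of 8 weeks, at 12.8. The 4 of skeletal muscle summed to -8.64 to 0.131 on the later CCL4 arrays, with 0 detected, and to -7.46 to 39.3 with olive oil. The part of any cell type in the members' signals was not tested. In whole liver, fewer cells of a type and less RNA per cell cannot be told apart.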

How the data were processed

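Liver RNA was read on 8 single-colour Agilent miRNA arrays (5 CCL4, 3 olive oil). The deposited intensity values are total gene signals from Feature Extraction, version 10.5.1.1 per the file headers, background-subtracted, summed over probes and not scaled between arrays by the authors. The deposited processed values are log2 of these signals, raised to 1 where lower, and served as an alternative. No mouse miRNA spot was saturated.

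Each array was divided by its 75th percentile over 567 mouse miRNAs, and scaled values under 0.01 were set to 0.01 before log2. The study's methods use the same percentile and floor but set the floor before the division, which was run as an alternative, and they state no filter on detection. The 133 miRNAs detected on at least 3 arrays were tested with limma 3.58.1 (R 4.3.3, with version 1.17.8 of data.table): over all weeks with week as a factor (4 residual degrees of freedom), and per week and for the interaction with a mean per group (2 residual degrees of freedom). Adjusted p is by Benjamini-Hochberg over all miRNAs tested, at 0.05. The generalized log scale (additive error 2.44, the median error of never detected miRNAs) was added after seeing the data. Tested on simulated data with 20 miRNAs changed by a log2 of 3, the fits on 133 miRNAs recovered 100% over all weeks, at 6 weeks and in the interaction. On the generalized log of 567 miRNAs they recovered 100%, 84.8% and 33%. The simulated noise was normal, with no floor and with spreads shuffled over miRNAs. It therefore cannot show how the fits treat values at the floor, as for mmu-miR-379. Members, marker lists and other lists were chosen with earlier results of these data known. Members detected on at least 1 array are given in full, others by range, with those past a test or order condition named after their values were seen. The number of arrays limits the precision.

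Replicate numbers of the CCL4 arrays did not pair the weeks: the replicate 1 minus 2 differences of 6 and 8 weeks correlated at 0.0508 over 133 miRNAs, as a description. Alternatives covered scaling, floor, filter, background correction, the methods' Welch's test, the variance model, detection rule and leaving out each array.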

Additional observations from a re-analysis of the deposited data

Results flagged for a closer look

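The effect of CCL4 on mmu-miR-379 differed between weeks by the limma interaction test (adjusted p = 4.81e-54 on the scaled log2 values and 0.0206 on the generalized log of unscaled signals). Both arrays of 4 weeks read near 0, and the CCL4 arrays of 6 and 8 weeks read 6.56 to 11.1. The first of these p-values rests on values at the floor. On scaled signals the generalized log gave 0.126.

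For mmu-miR-376b the effect differed between weeks on the generalized log of unscaled signals (limma adjusted p = 6.4e-06) and of scaled signals (limma adjusted p = 0.0272). It read 2.32 with olive oil and -3.75 with CCL4 at 4 weeks, and was higher with CCL4 at 6 and 8 weeks. The 4-week side of both interactions is 1 array against 1.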

How the results depend on the processing

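The 1 member called higher over all weeks, mmu-miR-379, was called 0 times with quantile normalization, the floor at the lowest detected signal, normexp or no filter. Nor was it called with detection on at least 1 array, no week term, or the methods' Welch's test (Benjamini-Hochberg 0.0887, Bonferroni 1, unadjusted at the 0.05 threshold). The filter of detection on all arrays left it untested. Leaving out single arrays gave 0 to 1, the 0 without replicate 1 of 6 weeks of CCL4 (limma adjusted p = 0.0551). With the floor at the lowest detected signal its log2 difference turned to -1.89 over all weeks (with or without the filter), -0.15 at 6 weeks and -0.12 at 8 weeks, and 0 members were called higher at 6 and 8 weeks and 1 lower at 4 weeks. Quantile normalization also called 1 lower at 4 weeks. Without the filter 1 was higher at 4 weeks and 0 at 6 and 8 weeks. The 75th percentile over miRNAs detected on all arrays left 0 at 8 weeks and 0 in the interaction. The cause was not tested.

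On the generalized log of unscaled signals, scaling changed the members called higher from 4 to 2 at 6 weeks (1.06% and 0.705% of all miRNAs). At 8 weeks it changed them from 2 to 0 (0.529% and 0%), and those past the interaction test from 2 to 1 (3.35% and 1.06%). A variance that follows brightness gave 4 over all weeks in place of 0 (6.88% and 1.76%), 1 at 8 weeks (0.882%) and 1 in the interaction (1.94%). Leaving out single arrays gave 0 to 4 over all weeks, the 4 without either 4-week array (1.59%). The calls at single weeks and in the interaction also changed with the array left out. Those at 6 weeks were lost without replicate 2 of 6 weeks. The replicate block kept mmu-miR-379 at 3.32 over all weeks (limma adjusted p = 0.0185, 1 member called) and left 0 members called on the generalized log. The replicate numbers are not shown to pair the arrays. Members detected on at least 1 array were 5 by signal above 3 errors, 6 by a limit shared by all arrays and 0 by the rule that 50% of the spots be well above background. The shared limit was passed by 121 to 155 of all mouse miRNAs on an array. Members above every olive oil array numbered 12 (8.82% of all miRNAs), and 12 to 20 with single arrays left out (9.17% to 17.6%), 20 without olive oil at 8 weeks. Most members lay at or below the detection limit, which limits what can be called.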

Other observations

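miRNAs of other imprinted loci were read beside the cluster. mmu-miR-335-5p, which lies within the imprinted gene Mest on chromosome 6, was detected on 4 CCL4 arrays and on no olive oil array. It read 1.49, 0.00252 and 1.06 with olive oil at 4, 6 and 8 weeks, 8.48 with CCL4 at 4 weeks, 2.25 and 5.59 at 6 weeks and 13.3 and 8.16 at 8 weeks. All CCL4 arrays lay above all olive oil arrays, the one of 4 weeks included, where the Dlk1-Dio3 members read low. Over all weeks it rose by 3.48 on the scaled log2 values (SE 0.57, limma adjusted p = 0.0029), and by 2.08 on the generalized log of unscaled signals (limma adjusted p = 0.0216). It did not pass on the generalized log of scaled signals (1.71, limma adjusted p = 0.0645), nor on the scaled log2 values without the filter on detection (3.48, limma adjusted p = 0.172). It met the detection condition through CCL4 arrays alone, and the size on the first scale rests on values at the floor.

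mmu-miR-296-5p, from the Gnas locus, was detected on all 8 arrays, at 13.6 to 17.3 with olive oil and 21.7 to 48.6 with CCL4. After division by the 75th percentile the groups overlapped, at 2.63 to 3.38 with olive oil and 3.13 to 5.12 with CCL4. mmu-miR-483, hosted by Igf2, was detected only on the CCL4 array of 4 weeks, at 21.2, and read -5.84 to -1.60 on the others. mmu-miR-483*, mmu-miR-335-3p, mmu-miR-296-3p, mmu-miR-298 and both arms of mmu-miR-675, from the H19 transcript, were detected on no array. The leukocyte list summed to 1316 on the CCL4 array of 4 weeks, 289 to 813 on the later CCL4 arrays and 275 to 503 with olive oil, and the 4 pancreatic miRNAs were detected on no array.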
